A study of Mus musculus with 4 samples.

Results

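The genes described here encode the conjugation enzymes of the UGT, GST and SULT families and the ester-cleaving CES family, in mouse colonic mucosa profiled by RNA sequencing. They are the 53 genes, of 19308 listed for every library, whose symbol in the deposited table of WT replicate 1 begins with Ugt1a, Ugt2a, Ugt2b, Gst (alpha, kappa, mu, omega, pi or theta class), Sult or Ces followed by a number. The set holds 11 UGT, 20 GST, 8 SULT and 14 CES genes. The tested group was mucosa of Itch-/- mice (labelled Itch KO), which lack the HECT-type ubiquitin ligase ITCH and whose colon the protocol describes as inflamed, and the comparison group was colonic mucosa of wild-type (WT) C57BL/6 mice, with 2 libraries in each group. A state label of inflammation is attached to all 4 samples, WT included, whereas the protocol uses the term for the Itch KO mucosa alone; age, sex and the strain of the knockout mice stand in none of the labels. Whether libraries of 1 group stem from different mice is not recorded, so the p-values reflect variation among libraries and this may be technical.

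UGT enzymes attach glucuronic acid to bilirubin, steroids, bile acids and plant or drug phenols. GST enzymes attach glutathione to reactive electrophiles, SULT enzymes transfer a sulfonate group from the donor PAPS, and carboxylesterases (CES) split esters and amides of drugs and lipids. In the gut these enzymes sit mainly in absorptive epithelial cells, where their products are pumped out by ABC transporters, and most of the families are also prominent in liver. UGT, SULT and CES genes are known to vary along the gut, with several of them strongest in the small intestine.

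Total counts over the 19308 genes were 8181193 and 9463759 in the Itch KO libraries and 9674531 and 12199709 in the WT libraries. Itch itself stood at 11.9 and 13.4 CPM (the usual library-scaled count unit, here with TMM factors) in the Itch KO libraries, against 203 and 183 CPM in the WT libraries. Both WT libraries carried markers of other tissue. The summed level of 14 squamous epithelium markers was 71.5 and 85.0 CPM in the Itch KO libraries, against 973 CPM in WT replicate 1 and 29.9 CPM in WT replicate 2. The sum of 14 small intestine markers was 142 and 174 CPM in the Itch KO libraries, against 288 CPM in WT replicate 1 and 921 CPM in WT replicate 2. Of the 10 tested, 5 were below in both Itch KO libraries and 0 above, against 26% and 30% of all genes. The sucrase gene Sis was at 0.368 and 0.309 CPM against 1.70 and 171 CPM, and Apob at 69.5 and 30.8 CPM against 166 and 379 CPM. Sis is among the 5. With 3 and 3 counts in the Itch KO libraries, it passed the filter on low counts through WT counts of 16 and 2107 alone. Its place below was thus fixed by that filter. Fabp2 overlapped, at 37.4 and 39.5 CPM against 21.9 and 54.3 CPM. Reg3a was highest in Itch KO replicate 2, at 46.3 CPM, against 7.16 CPM in WT replicate 2. Posterior hindgut markers summed to 240 and 188 CPM, against 614 CPM in WT replicate 1 and 71.0 CPM in WT replicate 2. The 12 epithelial identity markers, among them Epcam, Cdh1 and Vil1, summed to 2500 and 1916 CPM in the Itch KO libraries and 2295 and 1882 CPM in the WT libraries, and for none of them did the groups separate. In bulk tissue, fewer cells of a type and less RNA per cell cannot be told apart.

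The 4 mouse UGT1A members lie on GRCm38 chromosome 1 between 88095062 (start of Ugt1a7c) and 88220002 (its annotated end), on the plus strand, as first exons that are each spliced to the same downstream exons. A counting program that leaves out reads fitting several genes, as HTSeq does, can therefore count each of them only over its own bases. The joins are shown because they fix what each UGT1A value measures. The capitals mark the first 30 of 737 coding bases that all 4 genes share, and the lower-case letters are the last bases of each gene's own part, from GENCODE M21 transcripts.
Ugt1a1: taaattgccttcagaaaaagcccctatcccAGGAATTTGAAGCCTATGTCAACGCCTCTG
Ugt1a6a: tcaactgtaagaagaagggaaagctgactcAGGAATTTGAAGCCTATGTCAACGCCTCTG
Ugt1a6b: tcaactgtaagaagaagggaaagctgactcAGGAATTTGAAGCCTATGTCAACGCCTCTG
Ugt1a7c: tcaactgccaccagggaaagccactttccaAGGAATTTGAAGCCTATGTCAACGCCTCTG
Exonic bases shared with another annotated gene made up 82.7% of Ugt1a1, 50.3% of Ugt1a6a, 60.6% of Ugt1a6b and 54.6% of Ugt1a7c. Ugt1a6a and Ugt1a6b are also close copies in their own part, with 97.0% of 856 coding bases identical, so reads may be split between them or dropped. Their most different stretch, coding bases 296 to 355, is shown with its 9 differing bases in capitals.
Ugt1a6a: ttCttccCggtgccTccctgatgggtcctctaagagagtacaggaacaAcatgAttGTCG
Ugt1a6b: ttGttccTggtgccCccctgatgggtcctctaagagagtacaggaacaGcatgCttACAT

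Summed over their members, the UGT, CES and SULT families stood lower in Itch KO than in WT mucosa, and the GST family did not, while no single member passed an adjusted p of 0.05. UGT members summed to 231 and 149 CPM in the Itch KO libraries, against 316 and 501 CPM in the WT libraries, a mean of 190 ± 58.1 against 409 ± 130 CPM (SD, n = 2 each). CES members summed to 334 and 259 CPM against 392 and 899 CPM, which is 296 ± 52.9 against 646 ± 359 CPM (SD, n = 2 each). SULT members summed to 373 and 260 CPM against 445 and 490 CPM, or 317 ± 79.8 against 467 ± 31.7 CPM (SD, n = 2 each). GST members summed to 731 and 627 CPM against 719 and 659 CPM, or 679 ± 73.5 against 689 ± 42.6 CPM (SD, n = 2 each). Both Itch KO libraries were below both WT libraries for the UGT, SULT and CES sums, while the GST sums overlapped. The CES sum of WT replicate 2 was 2.29 times that of WT replicate 1, and without WT replicate 2 the log2 ratio of the CES sums moved to -0.40, against -1.12 with all libraries.

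**Figure D1:**
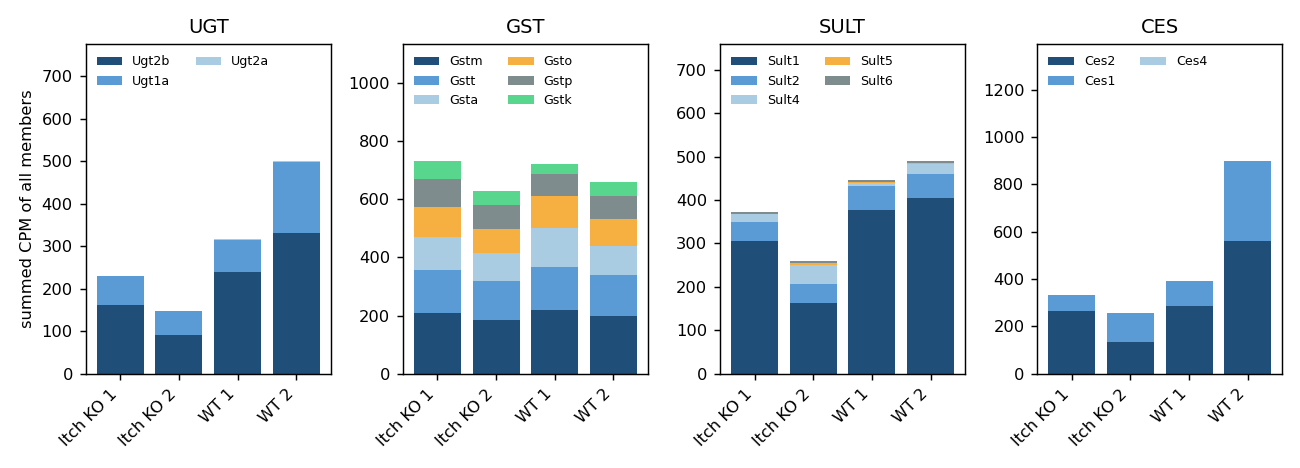
Summed CPM of all members of each family (y axis, from 0, a separate scale in each panel) in the 2 Itch KO and 2 WT libraries (x axis), with the gene classes stacked by colour. The UGT, SULT and CES bars are lower in both Itch KO libraries than in both WT libraries, the GST bars overlap, and the CES bar of WT replicate 2 reaches 899 CPM.

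Set against epithelial content the order was the same. Per 1000 CPM of the epithelial identity markers, the UGT sum was 92.2 and 77.5 CPM in the Itch KO libraries, against 138 and 266 CPM in the WT libraries. The SULT sum on that scale was 149 and 136 CPM against 194 and 260 CPM, and the CES sum 133 and 135 CPM against 171 and 478 CPM. The GST sum was 292 and 327 CPM against 314 and 350 CPM, and overlapped.

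The per-gene test was edgeR's quasi-likelihood test over the 16956 genes that passed a filter on low counts, and 47 of the 53 members were among them. None of the 47 passed at an adjusted p below 0.05, and neither did any other gene (0% of those tested). The smallest adjusted p of a member was 0.173, for Ces1e. At an unadjusted p below 0.05, a level reached by 19.7% of all genes, 9 members were lower and 0 higher in Itch KO mucosa, against 9.52% of all genes lower and 10.2% higher. limma voom called 0 members. DESeq2, run as an alternative, called 7 members lower and 0 higher (4.76% of all genes lower, 5.24% higher): Ces1d, Ces1e, Ces2a, Ces2b, Sult1c2, Ugt1a1 and Ugt2b35. Without WT replicate 2 it called 0 members, and with each of the other libraries left out in turn it called 5 to 13. The unadjusted edgeR count was 3 without WT replicate 2 (Ces1b, Ces1c and Ces2g), and none of those 3 was among the 9.

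Separation of the groups does not rest on the model. Both Itch KO libraries were below both WT libraries for 22 of the 47 tested members, against 26% of all genes, and above both for 2, against 30%. By family the count below was 6 of 8 UGT, 6 of 19 GST, 4 of 8 SULT and 6 of 12 CES members. Ugt2b1, with 2 and 0 counts in the Itch KO libraries, passed the filter through its WT counts of 11 and 21 alone. Its place below was thus fixed by the filter, and it also enters the UGT median and the 9 members lower at an unadjusted p below 0.05. Ugt2a3, with 9 and 5 counts against 16 and 25, was close to the minimum count of 10. With WT replicate 2 left out, both Itch KO libraries were below WT replicate 1 for 28 of 47 members, against 35.3% of all genes, and with WT replicate 1 left out they were below WT replicate 2 for 29, against 38.8%. Fitted log2 fold changes were negative for 36 of the 47 members, against 49.4% of all genes tested. Their median was -1.41 for UGT, -1.22 for CES, -0.22 for SULT and -0.09 for GST members, and 0.01 over all genes. With 1 library left out, the UGT median was -2.89 and -2.41 when Itch KO replicate 1 or 2 was dropped and -3.31 and -0.81 when WT replicate 1 or 2 was dropped. These fits admitted 11 UGT genes, or 7 in the last case, in place of 8. The genes added to make 11, Ugt2b5, Ugt2b36 and Ugt2b38, passed the filter through WT replicate 2 alone, where they are high. Their negative values there were thus fixed by the filter, and those medians are not over the same genes as -1.41. The CES median was -1.97 on dropping Itch KO replicate 1 and between -1.56 and -1.04 on dropping any other library.

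**Figure D2:**
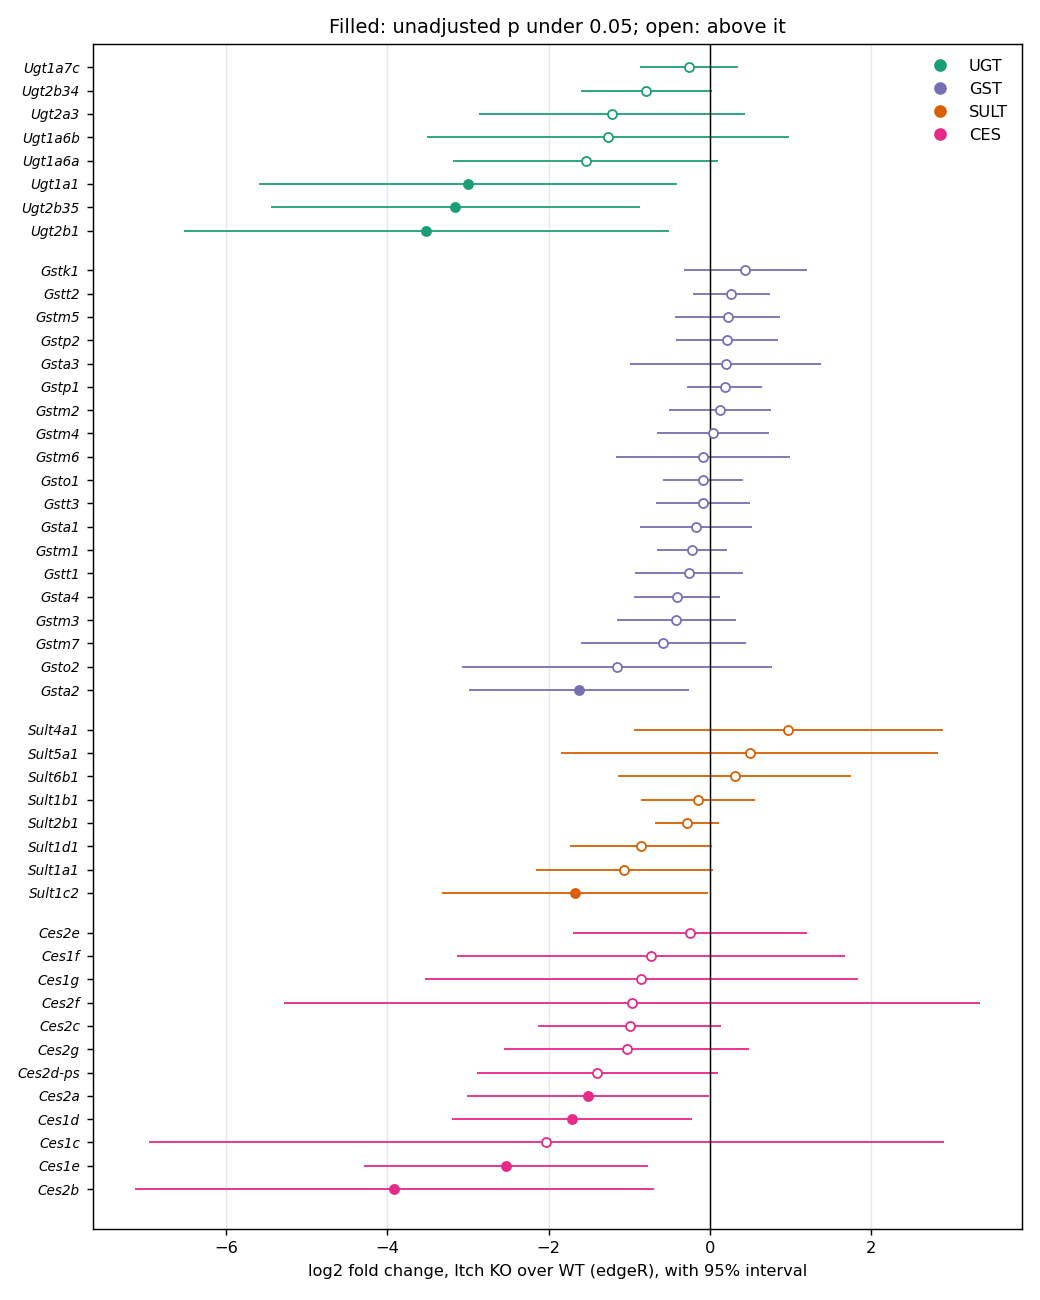
Log2 fold change of Itch KO over WT (x axis) for the 47 tested members (y axis, grouped by family), with 95% intervals from edgeR's quasi-likelihood fit. All 8 UGT and all 12 CES points lie below 0, the GST points gather around 0 with short intervals, and the 9 filled points have an unadjusted p under 0.05. The UGT gene Ugt2b1 passed the filter on low counts through its WT counts alone.

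Among the UGT genes, Ugt2b34 had the highest CPM, with 55.0% of the family's mean CPM, a share not corrected for length. Per kb of exon not shared with another gene in GENCODE M21, its WT mean was 48.3 CPM. On that scale Ugt1a1 was at 27.9, Ugt1a6a at 25.75 and Ugt1a7c at 25.3 CPM. Ugt2b34 (GRCm38 chromosome 5, 86889767 to 86906937, minus strand) lies in a cluster of UGT2 genes, a subfamily known to act on steroids and bile acids. It stood at 154 and 87.4 CPM in the Itch KO libraries, against 211 and 206 CPM in the WT libraries, and the groups did not overlap. Its log2 fold change was -0.79 (SE 0.30, 95% interval -1.60 to 0.03, edgeR adjusted p = 0.264). Ugt2b35, in the same cluster (87000860 to 87013275, plus strand), was at 5.52 and 1.13 CPM against 26 and 33 CPM, with a log2 fold change of -3.15 (SE 0.85, 95% interval -5.44 to -0.87, edgeR adjusted p = 0.181). Both WT libraries stood well above both Itch KO libraries and within a factor of 1.27 of each other, and the mean was 8.87-fold higher in WT. Ugt2b1 had 2 and 0 counts in the Itch KO libraries and 11 and 21 in the WT libraries.

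A further 3 UGT2B genes were found almost entirely in WT replicate 2. Ugt2b5 had 4 and 7 counts in the Itch KO libraries, against 6 counts in WT replicate 1 and 743 in WT replicate 2. Ugt2b36 had 2 and 6 counts against 3 and 218, and Ugt2b38 had 0 and 3 counts against 0 and 169. In all 3 cases WT replicate 1 was at the level of the Itch KO libraries, so the groups overlapped. None of them passed the filter on low counts, which asks for 2 libraries above the minimum. Ugt2b5 and Ugt2b38 share 41.7% and 37.4% of their 50-base words with another gene's transcripts, mostly with each other and Ugt2b37, so their counts may be split. Ugt2a3 was low throughout, at 1.10 and 0.515 CPM against 1.70 and 2.03 CPM.

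Ugt1a1, the enzyme that conjugates bilirubin, was at 1.23 and 1.44 CPM in the Itch KO libraries, against 3.62 and 17.9 CPM in the WT libraries. In GENCODE M21, Ugt1a1 has 385 exonic bases not shared with another gene, and 868 coding bases before the common end. Which annotation the counts used is not stated here, so the length behind these 4 values is uncertain. The WT libraries differed 4.94-fold between them. The log2 fold change was -3 (SE 0.96, 95% interval -5.60 to -0.41, edgeR adjusted p = 0.217). Ugt1a6a, which conjugates small planar phenols, was at 19.9 and 18.0 CPM against 26 and 84.3 CPM (edgeR log2 fold change -1.54 ± 0.61 SE, adjusted p = 0.272). Its close copy Ugt1a6b overlapped, at 2.33 and 3.20 CPM against 2.66 and 10.7 CPM. Ugt1a7c also overlapped, at 45.5 and 35.2 CPM against 43.3 and 53.6 CPM, with an interval of -0.87 to 0.34 for its log2 fold change. Within the locus, WT replicate 2 was therefore highest for every one of the 4 genes, by the widest margin for Ugt1a1.

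Promoter windows (RefSeq, GRCm38.p6, 250 bases before to 50 after the start) were found for 45 members, and 32851 such windows of all genes served as background. Motifs searched on both strands were TGACNNNGC, the antioxidant response element (12.4% of all windows, 3 members, all GST), GCGTG, the core of the xenobiotic response element (32.4%, 8 members), CAAAGTCCA for HNF4 (0.475%, Sult1b1 alone), AGATAAG for GATA factors (3.04%, 3 members, all UGT2) and TATAAA, the TATA box (13.6%, 6 members). Of the 55 windows of members, 5.5% held TGACNNNGC and 18.2% GCGTG, both below the share of all windows. CAAAGTCCA was in 1.8%, AGATAAG in 5.5% and TATAAA in 10.9% of them. A match is a run of letters and not a measured binding site.

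GST genes were the steadiest of the 4 families. Of 19 tested members 11 had a negative and 8 a positive log2 fold change, and for the 17 with a mean of at least 5 CPM the values ran from -0.58 (Gstm7) to 0.44 (Gstk1). Gsto1, an omega-class enzyme that reduces dehydroascorbate, was the most abundant, at 101 and 83.6 CPM in the Itch KO libraries and 109 and 86.8 CPM in the WT libraries. The groups overlapped, and the 95% interval of its log2 fold change, -0.58 to 0.40, leaves out a doubling or a halving in this fit. The theta-class gene Gstt3 was at 59.8 and 42.9 CPM against 55.4 and 53.8 CPM, with an interval of -0.67 to 0.49.

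The mu-class genes lie in a row on GRCm38 chromosome 3 between 107895821 (Gstm5) and 108044894 (Gstm4). Gstm1, which conjugates many aromatic electrophiles, was at 47.9 and 47.9 CPM in the Itch KO libraries, against 60.5 and 51.6 CPM in the WT libraries (edgeR log2 fold change -0.23 ± 0.16 SE, adjusted p = 0.476). Gstm3 was at 24.7 and 19 CPM against 30.1 and 28.1 CPM, and Gstm7 at 13.1 and 9.89 CPM against 18.0 and 16.4 CPM. For these 3 the groups did not overlap, while Gstm2, Gstm4, Gstm5 and Gstm6 overlapped. Pseudogenes and neighbours share 28.8% of the 50-base words of Gstm3 and 18.9% of those of Gstm1, so their counts are less certain than those of Gstm4 and Gstm7.

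In the alpha class Gsta1, Gsta2 and Gsta4 were lower in both Itch KO libraries than in both WT libraries, and Gsta3 was not. Gsta4, which detoxifies the lipid peroxidation product 4-hydroxynonenal, was at 40.6 and 38.6 CPM in the Itch KO libraries, against 59.2 and 46.1 CPM in the WT libraries (edgeR log2 fold change -0.41 ± 0.20 SE, 95% interval -0.94 to 0.12, adjusted p = 0.33). Gsta1 was at 25.3 and 21.6 CPM against 25.5 and 27.5 CPM. Gsta2 was the only GST with an unadjusted p below 0.05, at 1.47 and 1.13 CPM against 3.83 and 4.23 CPM (12 and 11 counts against 36 and 52). Its log2 fold change was -1.62 (SE 0.51, edgeR adjusted p = 0.21). Gsta1 and Gsta2 share 90.5% and 49.8% of their 50-base words with other genes of the cluster, so their counts are uncertain. Gsta3, known in mice for conjugating the epoxide of aflatoxin B1, overlapped at 45.3 and 31.9 CPM against 45.7 and 21.8 CPM.

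The members higher in both Itch KO libraries were Gstp1 and Gstt2. Gstp1, the pi-class enzyme, was at 56.0 and 47.3 CPM against 47.2 and 44.1 CPM (edgeR log2 fold change 0.18 ± 0.17 SE, adjusted p = 0.587), and Gstt2 at 57.9 and 47.6 CPM against 44.3 and 43.6 CPM (edgeR log2 fold change 0.26 ± 0.18 SE, adjusted p = 0.451). Gstp1 and Gstp2 share 98.1% of their 630 coding bases, so the split of reads between them is uncertain. Gstp2 overlapped at 41.7 and 34 CPM against 29.3 and 35.9 CPM. Gstk1, found in mitochondria and peroxisomes, had the highest fitted value of the family (0.44, SE 0.28), yet WT replicate 2 at 48.5 CPM lay between the Itch KO libraries at 61.6 and 47.7 CPM. WT replicate 1 was at 32.0 CPM.

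**Figure D3:**
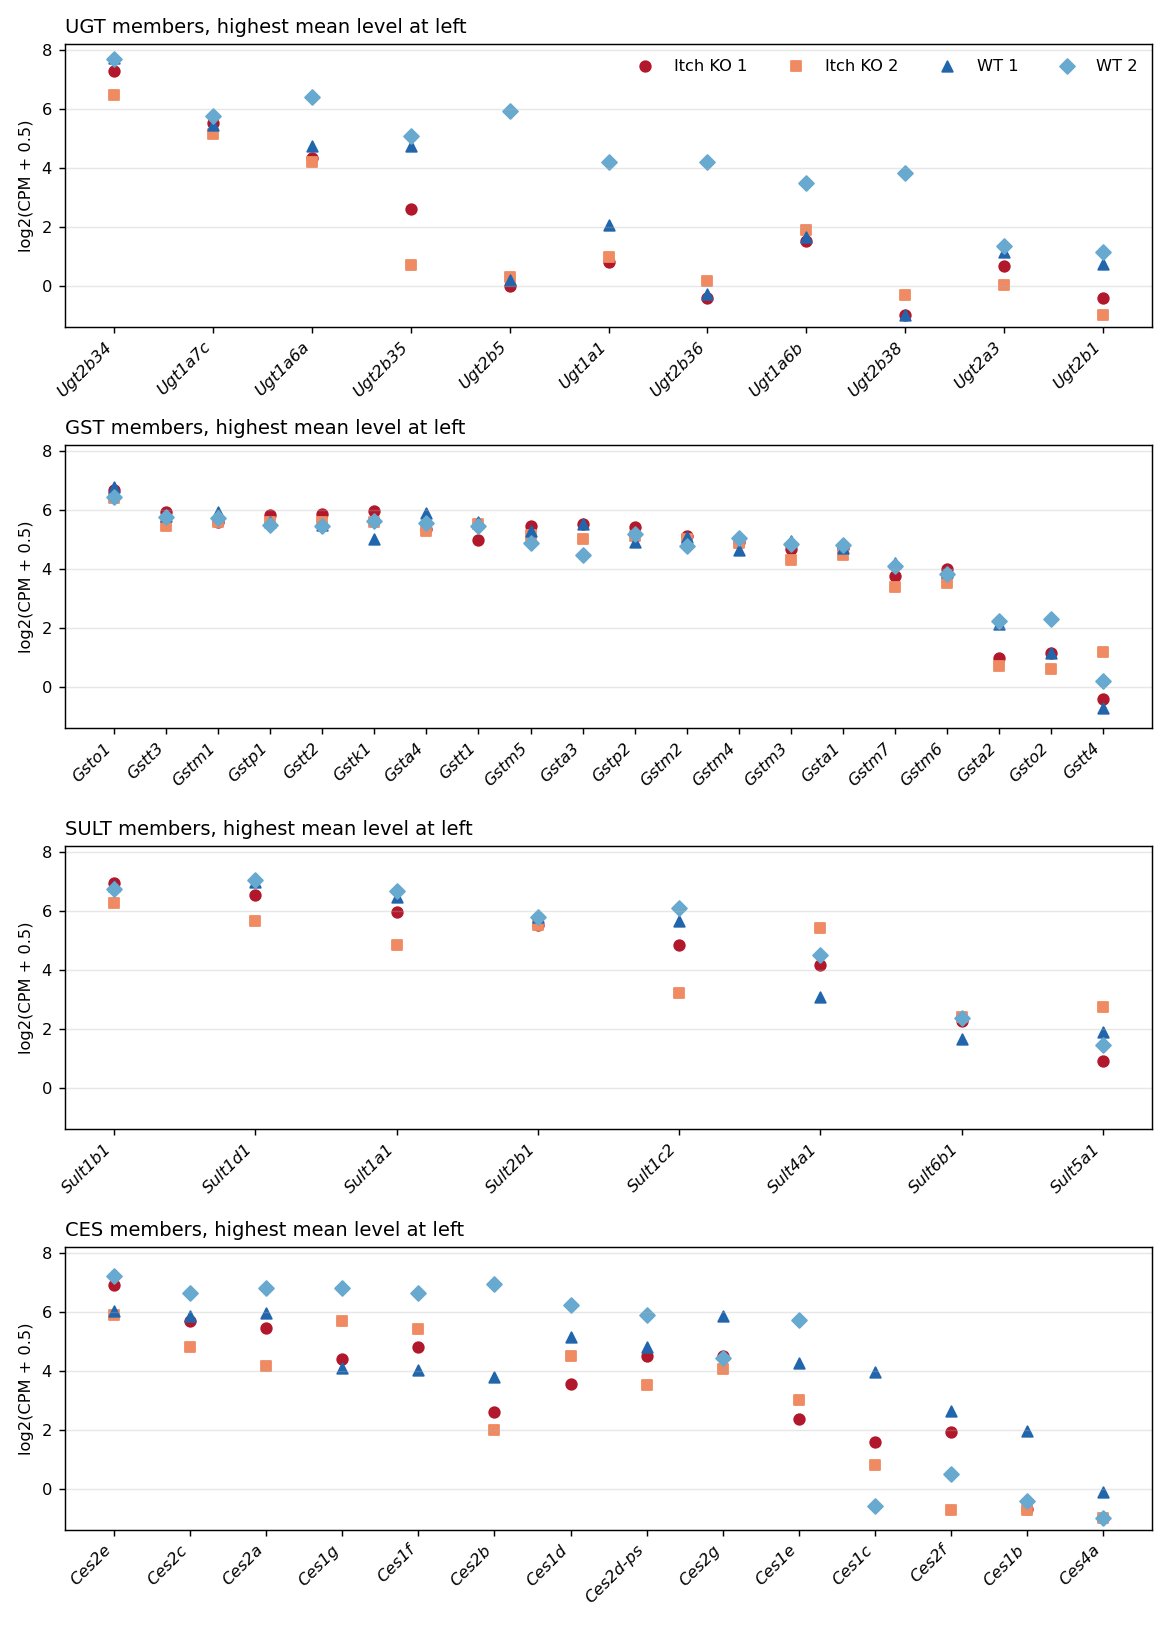
Level of each of the 53 members as log2(CPM + 0.5) (y axis) in the 2 Itch KO libraries (circles, squares) and the 2 WT libraries (triangles, diamonds), with 1 panel per family and the members ordered by mean level (x axis). The 4 symbols lie close together for most GST genes, whereas WT replicate 2 stands apart for Ugt2b5, Ugt2b36, Ugt2b38 and Ces2b.

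Among the sulfotransferases the SULT1 genes of absorptive epithelium carried the difference. Their sum was 305 and 162 CPM in the Itch KO libraries, against 377 and 406 CPM in the WT libraries. Sult1a1, which sulfonates phenols (chromosome 7, 126672865 to 126676432, minus strand), was at 61.7 and 28.2 CPM against 87.1 and 101 CPM. Its log2 fold change was -1.06 (SE 0.41, 95% interval -2.16 to 0.03, edgeR adjusted p = 0.263). Sult1d1, which acts on dopamine and other catechols in mice, was at 92.8 and 49.5 CPM against 125 and 132 CPM (edgeR log2 fold change -0.85 ± 0.33 SE, adjusted p = 0.264). Sult1c2 had the lowest value of the family, at 28.1 and 8.76 CPM against 49.9 and 67.6 CPM, with a log2 fold change of -1.68 (SE 0.61, 95% interval -3.32 to -0.03, edgeR adjusted p = 0.248). For each of these 3 the groups did not overlap, the 2 WT libraries were within a factor of 1.35 of each other, and Itch KO replicate 2 was the lowest library.

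Sult1b1, which sulfonates thyroid hormone and lies beside Sult1d1 on chromosome 5, overlapped at 122 and 76.0 CPM in the Itch KO libraries and 115 and 105 CPM in the WT libraries. Its log2 fold change was -0.15 (SE 0.26, 95% interval -0.86 to 0.55), and its sign turned without Itch KO replicate 2, to 0.16. Sult2b1, which sulfonates cholesterol, was tightly grouped at 45.1 and 44.8 CPM against 54.5 and 55.2 CPM, or 45 ± 0.204 against 54.9 ± 0.501 CPM (SD, n = 2 each; log2 fold change -0.29, SE 0.15, edgeR adjusted p = 0.35). Sult4a1, a sulfotransferase best known from neurons, ran the other way at 17.3 and 42.1 CPM against 7.99 and 22.2 CPM and overlapped (edgeR log2 fold change 0.97 ± 0.71 SE, adjusted p = 0.481). Sult5a1 and Sult6b1 were under 7 CPM in each library and overlapped.

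Carboxylesterase genes form 2 rows on GRCm38 chromosome 8, with the Ces1 genes between 93056728 and 93337308 and the Ces2 genes between 104734003 and 104969537. The Ces2 genes summed to 267 and 135 CPM in the Itch KO libraries, against 287 and 560 CPM in the WT libraries, and the Ces1 genes to 66.5 and 124 CPM against 104 and 339 CPM. Ces2e was the most abundant, at 120 and 59.1 CPM against 64.8 and 147 CPM, and overlapped. Its fitted value of -0.25 (SE 0.54) changed sign without WT replicate 2 (0.46) and without Itch KO replicate 2 (0.19). Ces2a, a carboxylesterase of intestine and liver, was at 43.3 and 17.3 CPM against 60.8 and 112 CPM (edgeR log2 fold change -1.51 ± 0.56 SE, 95% interval -3.02 to -0.01, adjusted p = 0.252), and Ces2c at 50.8 and 27.3 CPM against 57.8 and 97.8 CPM. The groups of both genes did not overlap.

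Ces2b (chromosome 8, 104831572 to 104840093, plus strand) had the largest fitted difference of the 47 tested members. It was at 5.52 and 3.50 CPM in the Itch KO libraries, against 13.2 CPM in WT replicate 1 and 122 CPM in WT replicate 2, with a log2 fold change of -3.91 (SE 1.19, 95% interval -7.13 to -0.70, edgeR adjusted p = 0.208). Its 2 WT libraries thus differed 9.27-fold. Ces2d-ps, annotated as a pseudogene, was at 21.8 and 11 CPM against 27.4 and 59 CPM, but 76.9% of its 50-base words occur in other genes, mainly Gm8798 and Ces2c, so its reads cannot be assigned to it with confidence. Ces2g was at 22.1 and 16.3 CPM, against 57.7 CPM in WT replicate 1 and 21 CPM in WT replicate 2.

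Of the 5 tested Ces1 genes, Ces1e and Ces1d were lower in both Itch KO libraries than in both WT libraries. This held for 26% of all genes. Ces1e, also known as egasyn, which holds beta-glucuronidase in the endoplasmic reticulum, was at 4.66 and 7.52 CPM against 18.6 and 52.1 CPM. Its log2 fold change of -2.53 (SE 0.65, 95% interval -4.29 to -0.77, edgeR adjusted p = 0.173) had the smallest p of all members, and its mean was 5.81-fold higher in WT. Ces1d, a triacylglycerol hydrolase of liver and fat, was at 11.2 and 22.3 CPM against 34.5 and 75.0 CPM (edgeR log2 fold change -1.71 ± 0.55 SE, adjusted p = 0.218). Adipocyte markers summed to 95.9 and 188 CPM in the Itch KO libraries, against 160 and 427 CPM in the WT libraries, and these sums overlapped. Both Itch KO libraries were below both WT libraries for 1 of the 7 tested adipocyte markers, against 26% of all genes. Of the 9 markers 3 had 0 counts in Itch KO replicate 1 and none had in the other 3 libraries. Their part in the Ces1d values was not tested.

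Ces1f and Ces1g did not separate the groups. Ces1g was at 20.7 and 50.6 CPM in the Itch KO libraries, against 16.6 CPM in WT replicate 1 and 112 CPM in WT replicate 2, and Ces1f at 27.3 and 42.4 CPM against 15.9 and 99.7 CPM. Both Itch KO libraries lay between the WT libraries, and the fitted log2 fold changes turned from -0.85 and -0.73 to 1.11 and 1.14 without WT replicate 2. Ces1c, Ces1b and Ces2f had the opposite order within WT. Ces1c, a carboxylesterase of blood plasma, was at 2.45 and 1.24 CPM against 15.0 CPM in WT replicate 1 and 0.163 CPM in WT replicate 2. Ces1b, which was not tested, had 1 and 1 counts against 32 and 3, and its groups did not overlap. Ces2f had 27 and 1 counts against 54 and 11, and Ces4a 0 and 0 against 4 and 0.

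**Figure D4:**
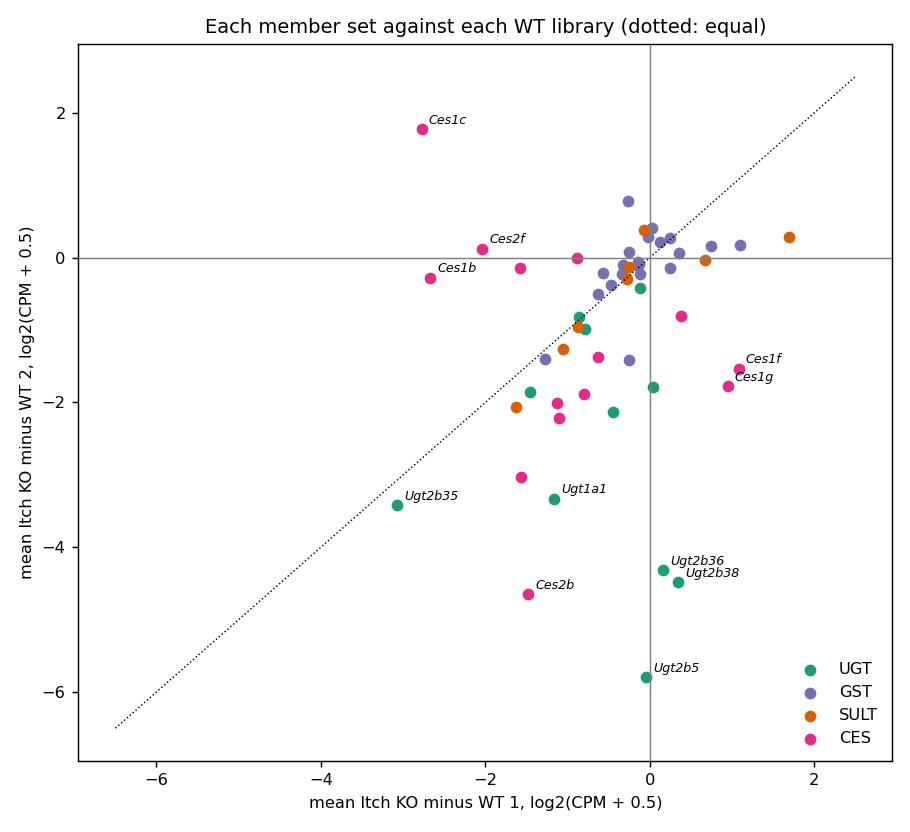
Mean of the 2 Itch KO libraries minus WT replicate 1 (x axis) and minus WT replicate 2 (y axis) for each of the 53 members, in log2(CPM + 0.5), coloured by family. Points in the lower left quadrant were lower than either WT library on average; Ugt2b5, Ugt2b36 and Ugt2b38 sit near 0 on the x axis and far below 0 on the y axis, and Ces1f and Ces1g lie right of 0 and below 0.

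The WT libraries differed from each other most often among CES and UGT genes. WT replicate 2 exceeded WT replicate 1 more than 2-fold for 12 of the 47 tested members, against 7.68% of all genes tested, and 7 of these 12 were CES and 3 UGT genes. WT replicate 1 exceeded WT replicate 2 by that much for 4 tested members, against 6.97% of all genes. The small intestine markers were highest in the same library, at 921 CPM in WT replicate 2, and their part in the UGT and CES differences was not tested. In WT replicate 1 the small intestine markers summed to 288 CPM, against 142 and 174 CPM in the Itch KO libraries. The squamous markers were high in WT replicate 1 only, at 973 CPM, and their part was not tested either. Below WT replicate 1 in both Itch KO libraries were 6 of 8 UGT and 9 of 12 CES members, against 35.3% of all genes. The GST and SULT counts there were 9 of 19 and 4 of 8. Below WT replicate 2 in both were all 8 tested UGT and 9 of 12 CES members, against 38.8% of all genes. The GST and SULT counts there were 8 of 19 and 4 of 8. The UGT counts include Ugt2b1, which passed the filter through its WT counts alone. Leukocyte markers summed to 1344 and 1682 CPM in the Itch KO libraries, against 577 and 441 CPM in the WT libraries. All 14 were higher in both Itch KO libraries than in both WT libraries, against 30% of all genes. Their part in the enzyme values was not tested, and the summed epithelial markers overlapped between the groups.

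Levels of different genes can be compared only per length. Per kb of exon not shared with another gene, the highest WT means were 64.9 CPM for Sult1a1, 52.2 for Sult1d1, 48.4 for Gsto1 and 48.3 for Ugt2b34. In Itch KO mucosa the highest were 45.5 CPM per kb for Gsto1, 37.2 for Gstk1, 35.7 for Sult1b1 and 35.5 for Gstm5. On that scale Sult1a1 stood at 31.1, Sult1d1 at 28.9 and Ugt2b34 at 28.0 CPM per kb in Itch KO mucosa. The Itch KO libraries differed in this order. In replicate 1 Gsto1 (49.8 CPM per kb) was followed by Ces2e (44.6), Sult1b1 (44.1) and Sult1a1 (42.6), and in replicate 2 Gsto1 (41.3) was followed by Gstm1, Gstk1 and Gstm5.

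Among genes that supply UDP-glucuronate, PAPS and sulfate, both Itch KO libraries were below both WT libraries for 4 of 12, against 26% of all genes. They were above both for 1, against 30%, and overlapped for the rest. Ugdh, which makes UDP-glucuronate, was at 117 and 108 CPM in the Itch KO libraries, against 171 and 233 CPM in the WT libraries (edgeR log2 fold change -0.84 ± 0.20 SE, adjusted p = 0.156). The sulfate transporter gene Slc26a2 was at 322 and 205 CPM against 510 and 449 CPM (edgeR log2 fold change -0.87 ± 0.29 SE, adjusted p = 0.225). Papss2, which makes PAPS, and the anion exchanger gene Slc26a3 overlapped, at 222 and 150 against 217 and 232 CPM and at 226 and 143 against 305 and 197 CPM. Of the 12 genes in this list 2 were lower and 0 higher at an unadjusted p below 0.05, against 9.52% and 10.2% of all genes, and their median was -0.36.

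Of 18 glutathione genes 2 were lower and 5 higher at an unadjusted p below 0.05, against 9.52% and 10.2% of all genes, with a median of 0.24. Chac1, which degrades glutathione, was at 20.7 and 18.7 CPM in the Itch KO libraries, against 7.67 and 7.07 CPM in the WT libraries (edgeR log2 fold change 1.42 ± 0.38 SE, adjusted p = 0.177). Gsr, the reductase that recycles oxidised glutathione, was at 152 and 149 CPM against 116 and 102 CPM (edgeR log2 fold change 0.47 ± 0.13 SE, adjusted p = 0.18), and Txnrd1, of the parallel thioredoxin system, stood at 250 and 212 CPM against 194 and 190 CPM. Slc7a11, the cystine importer, Slc3a2 and Ggct were the other 3 on the higher side. The synthesis gene Gclc was on the lower side with Oplah, at 105 and 87.3 CPM against 130 and 148 CPM, and its partner subunit gene Gclm was at 120 and 115 CPM against 122 and 156 CPM.

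In a list of 11 efflux transporters, which carry conjugates or drugs out of the cell, the 2 genes with the smallest p were Abcc2 and Abcb1a. Abcc2, which exports glucuronide and glutathione conjugates across the apical membrane, had 4 and 8 counts in the Itch KO libraries and 142 and 271 in the WT libraries. This is 0.491 and 0.825 CPM against 15.1 and 22.0 CPM, with a mean 28.3-fold higher in WT (edgeR log2 fold change -4.78 ± 0.60 SE, adjusted p = 0.123). Abcc2 passed the filter on low counts through its WT counts alone, so its place below was fixed by the filter. It also enters the count of lower transporters and the median of the list. Abcb1a, the drug exporter P-glycoprotein, was at 97.4 and 83.2 CPM against 238 and 301 CPM (edgeR log2 fold change -1.58 ± 0.19 SE, adjusted p = 0.123). Abcc3 and Abcc1 overlapped, at 226 and 143 against 219 and 288 CPM and at 97.5 and 139 against 131 and 104 CPM. In total, 4 of 11 transporters were lower and 0 higher at an unadjusted p below 0.05, against 9.52% and 10.2% of all genes. The other two were Abcc6 and Slc51a, and the median was -0.46.

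**Figure D5:**
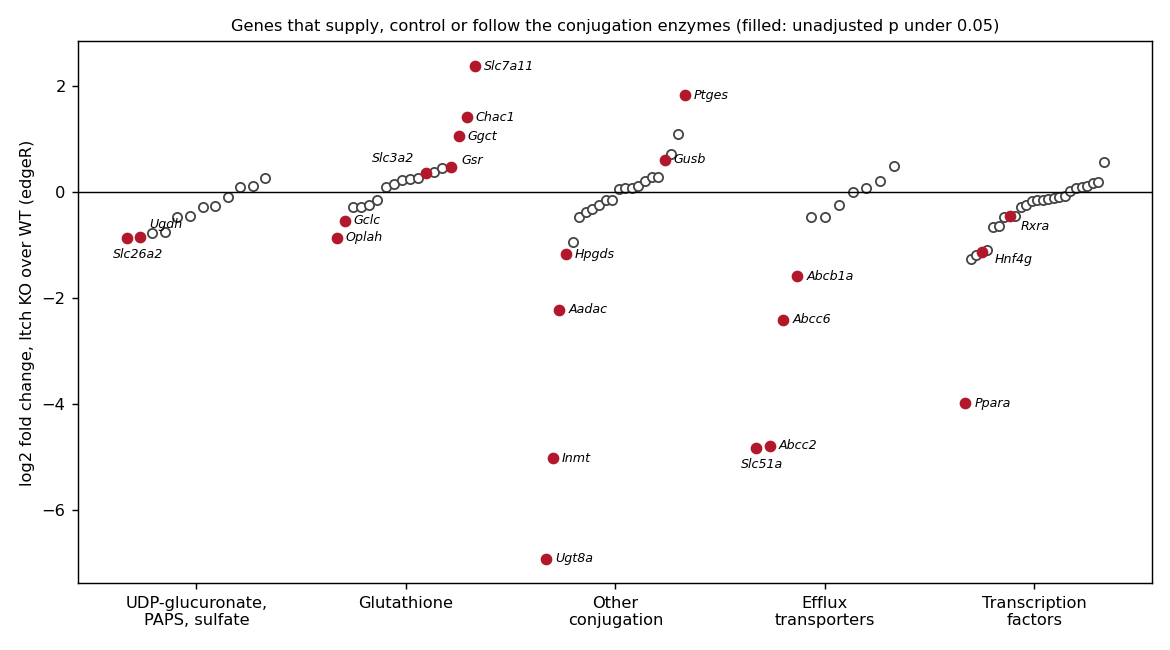
Log2 fold change of Itch KO over WT (y axis) for genes of 5 companion lists (x axis), with 1 point per tested gene ordered by value within its list. The filled points have an unadjusted edgeR p under 0.05: 4 of 11 efflux transporters are filled and below 0, while the glutathione list has 5 filled points above 0 and 2 below. The filled genes Abcc2, Ugt8a and Inmt passed the filter on low counts through their WT counts alone.

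The other conjugation and hydrolysis enzymes had a median of -0.04 over 22 tested genes, with 4 lower and 2 higher at an unadjusted p below 0.05, against 9.52% and 10.2% of all genes. Hpgds, a sigma-class GST that makes prostaglandin D2, was at 21.2 and 20.8 CPM in the Itch KO libraries, against 47.4 and 47.0 CPM in the WT libraries (edgeR log2 fold change -1.17 ± 0.20 SE, adjusted p = 0.127). Gusb, the beta-glucuronidase that removes glucuronic acid again, was at 162 and 152 CPM against 109 and 96.6 CPM (edgeR log2 fold change 0.61 ± 0.13 SE, adjusted p = 0.138). The microsomal GST gene Mgst2 overlapped, at 113 and 69.9 against 108 and 143 CPM, and Pon2 was at 126 and 113 CPM against 107 and 113 CPM. The others at that level were Ptges on the higher side and Ugt8a, Inmt and Aadac on the lower side. Ugt8a and Inmt passed the filter on low counts through their WT counts alone. Their place on the lower side was thus fixed by the filter, and both also enter the median. Inmt had 2 and 5 counts in the Itch KO libraries, against 200 and 58 in the WT libraries. Ugt8a, a UDP-galactose ceramide transferase outside the UGT1 and UGT2 families, had 2 and 3 counts in the Itch KO libraries, against 34 counts in WT replicate 1 and 823 in WT replicate 2.

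Of 26 transcription factors known to control these genes, 3 were lower and 0 higher at an unadjusted p below 0.05, a count near the 9.52% of all genes that were lower (10.2% were higher), with a median of -0.15. Both Itch KO libraries were below both WT libraries for 10 of the 26, against 26% of all genes. They were above both for 1, against 30%. Ppara, the nuclear receptor of fatty acid breakdown, was at 5.03 and 2.16 CPM in the Itch KO libraries, against 10.4 CPM in WT replicate 1 and 103 CPM in WT replicate 2 (edgeR log2 fold change -3.98 ± 1.28 SE, adjusted p = 0.217). Rxra, the shared partner of nuclear receptors, was at 151 and 135 CPM against 181 and 210 CPM (edgeR log2 fold change -0.45 ± 0.15 SE, adjusted p = 0.228), and Hnf4g was the other of the 3. Hnf4a and Ppard overlapped, at 350 and 246 against 357 and 304 CPM and at 214 and 155 against 198 and 197 CPM. The oxidative stress regulator Nfe2l2 overlapped at 151 and 144 CPM against 148 and 163 CPM.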

How the data were processed

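RNA-seq of total RNA from colonic mucosa was available for 2 Itch KO and 2 WT libraries. Each library has its own table of whole-number counts by gene, as the authors deposited it. Per the submitters' processing notes, HTSeq 0.6.1 and SAMtools 0.1.19 were used beside TopHat2 and CASAVA 1.8.2, and the builds named are GRCm38 and mm10. The strand setting is not given in the sources used here. The deposited table of WT replicate 1 lists 19308 genes, how chosen is not stated, and only these entered tests and library sizes; the other 3 tables list 39179 genes. HTSeq's lines without a gene were left out: reads in no gene were 18.2% to 23.0% and ambiguous reads 2.67% to 3.03% of these 3 tables. No gene held over 9389 counts in a library.

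Counts were tested with edgeR 4.0.16 (R 4.3.3): TMM factors, filterByExpr at a minimum count of 10, glmQLFit with robust estimation, group as the only term, two-sided, Benjamini-Hochberg adjustment over all 16956 genes at 0.05. The SE is the log2 fold change divided by the square root of the F statistic. There were 2 residual degrees of freedom and a biological coefficient of variation of 34.8%. DESeq2 1.42.0, limma voom (limma 3.58.1), other scalings and filters, edgeR's legacy=FALSE estimator, a replicate block and each library left out were alternatives. The scripts were tested on simulated counts.

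Members given in full were, per family, the 5 with the highest mean CPM and up to 5 in each direction with the largest fold change among non-overlapping members of at least 5 CPM; any other gene was picked out with its values known. From companion lists the 3 most abundant genes and the 2 with the smallest p were named. Members and lists were chosen with earlier results of these data known. Lengths and shared exons come from GENCODE M21 (GRCm38) and the 50-base word check from its transcripts. A result that needs a withheld item is not reported here.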

Additional observations from a re-analysis of the deposited data

Results flagged for a closer look

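Family genes by current GENCODE name that the symbol rule did not take were examined for counts in Itch KO libraries above the WT level. Of 31 such genes listed, 29 stand outside the list of WT replicate 1 and can be set only against WT replicate 2, and among these only Ugt2b37 exceeded 10 counts in a library, with 0 and 0 counts in the Itch KO libraries and 18 in WT replicate 2. In CPM without TMM factors, Gstp3, listed as BC021614, reached 31.7 CPM in its higher Itch KO library, with 259 and 204 counts in the Itch KO libraries against 188 and 96 in the WT libraries. Sult6b2, listed as Gm766, reached 3.59 CPM, with 1 and 34 counts against 1 and 1. Ces1a and Ces1h each reached 0.423 CPM (0 and 4 counts against 0, and 2 and 4 counts against 1), Sult1c1 reached 0.367 CPM (3 and 0 counts against 3), and Ces5a 0.317 CPM (1 and 3 counts against 0). The last 4 rest on 3 or 4 counts, and no test is given for any of the 6.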

How the results depend on the processing

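With 2 libraries a group the edgeR test had 2 residual degrees of freedom, and missing calls do not show equal levels; with 1 library left out, the lone library of its group is assumed to vary like the other group. The edgeR and limma voom settings all called 0 genes. DESeq2 called 1696 genes, 807 lower and 889 higher, and 7 members. Leaving out libraries in DESeq2, an alternative chosen after seeing the data, gave 1229, 438, 1170 and 893 genes and 8, 5, 13 and 0 members without Itch KO replicate 1, Itch KO replicate 2, WT replicate 1 and WT replicate 2. Members lower at an unadjusted p below 0.05 numbered 9, but 5 with a mean of at least 5 CPM, 4 with the replicate block and 3 to 13 without 1 library; DESeq2 gave 13, and 14, 9, 18 and 5 without the libraries in the same order. Members higher numbered 0, but 1 (Sult4a1) with the replicate block, 1 (Ces1c) without WT replicate 1, for a range of 0 to 1 without 1 library, and 1 (Sult4a1) in DESeq2 without WT replicate 2. The UGT median of -1.41 was -2.996 with no filter on low counts, which let in all 11 UGT genes, -2.29 under the 5 CPM filter and -3.31 to -0.81 without 1 library. Where a library other than WT replicate 2 was left out, Ugt2b5, Ugt2b36 and Ugt2b38 came in through WT replicate 2 alone. Ugt2b5 also passed the 5 CPM filter through that library alone. The SULT median of -0.22 was -0.59 under the same filter. Without 1 library the SULT median ranged from -0.41 to -0.17 and the GST median from -0.15 to 0.0742. The log2 ratio of sums ranged from -0.85 to -0.33 for SULT, from -1.60 to -0.40 for CES and from -0.14 to 0.09 for GST. Of 336 values for the 28 tested members given in full, 8 changed sign, each with 1 library left out: Ces1f (-1.49 to 1.14), Ces1g (-1.63 to 1.11) and Ces2e (-0.85 to 0.46) turned without WT replicate 2; Ces2e (0.19), Gsto1 (0.05), Gstt3 (-0.35 to 0.14) and Sult1b1 (-0.54 to 0.16) without Itch KO replicate 2; Gsto1 (-0.25 to 0.10) without WT replicate 1. The cause was not tested. Same-numbered libraries of the 2 groups had a correlation of 0.0481 between their deviations, over 2 pairs, so the replicate block was not taken as a pairing.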
